A study of Mus musculus with 18 samples.

Results

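The genes of major histocompatibility complex (MHC) class I and class II antigen presentation were described in the hearts of mice with an experimental myocardial infarction. The members were the gene symbols that start with H2-, the mouse MHC, together with B2m, Cd74, Ciita, Nlrc5, Tap1, Tap2 and Tapbp, as long as their counts summed over all 18 libraries reached 30. Of 25230 symbols in the count table, 51 matched these names and 29 reached the minimum: 19 of class I, 9 of class II, and H2-Ke6, whose product belongs to neither class. Of the 22 symbols below it, 12 were at 0 in every library, among them H2-Q7, H2-Q8 and H2-Q9. Just inside the minimum stood H2-T22 with 31 counts and the pseudogene H2-T-ps with 37, and just outside it H2-Eb2 and H2-M9 with 19 each and H2-Oa with 18.

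Polyadenylated RNA was sequenced from male C57BL/6J mice whose left anterior descending coronary artery had been ligated 3 days earlier. Tissue of the atria and of the left ventricle (LV), there split into an infarcted and a non-infarcted piece, was taken from mice given liraglutide, an agonist of the receptor for the gut hormone GLP-1, or phosphate-buffered saline (PBS). This gave 6 groups of 3 libraries, which the labels call biological replicates: atria with liraglutide, atria with PBS, infarcted LV with liraglutide, infarcted LV with PBS, non-infarcted LV with liraglutide and non-infarcted LV with PBS. All groups share the ligation, so that the non-infarcted LV and the atria come from hearts with an infarct, and sham-operated mice were not analysed here. The sources used here do not give dose and schedule of the treatment, nor the age and number of the mice. Pieces of tissue hold many cell types, so fewer cells of a type and less RNA per cell cannot be told apart in any value below.

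Class I molecules present peptides from inside the cell to CD8 T cells and are made by nearly all nucleated cells. Each is a heavy chain, such as those of H2-K1 and H2-D1, bound to beta-2 microglobulin (B2m). The transporter of Tap1 and Tap2 brings peptides into the endoplasmic reticulum, tapasin (Tapbp) helps load them, and NLRC5 is the transactivator of class I promoters. Class II molecules present peptides from engulfed material to CD4 T cells and are made mainly by macrophages, dendritic cells and B cells. They pair an alpha chain (H2-Aa) with a beta chain (H2-Ab1), travel with the invariant chain Cd74, exchange its remnant for peptide with the help of H2-DM, and depend on the transactivator CIITA. Mice of the C57BL/6 strain make the beta chain transcript of H2-Eb1 but carry a defective gene for its alpha partner. Both classes are induced by interferon gamma.

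The libraries held 4280459 to 21853482 counts. Levels are in CPM, each count scaled by the total of its library, and 3 counts equal 0.137 to 0.701 CPM. Group values are means ± SD over n = 3 libraries. Differences, also those in parentheses, are log2 fold changes of the first group over the second, and SE is their standard error. Adjusted p values are those of edgeR's quasi-likelihood test with Benjamini-Hochberg adjustment over all genes tested in a comparison. A gene is said to rise or fall where this value is under 0.05. Atrial libraries differed in markers of other tissue. Liraglutide replicate 3 held the ventricular light chain Myl2 at 924 CPM and replicate 1 at 275 CPM, where the other atria had 2.08 to 8.82 CPM. PBS replicate 2 held the fat cell gene Adipoq at 79.2 CPM and the brown fat gene Ucp1 at 88.8 CPM, where the other atria reached 4.84 and 0.144 CPM at most.

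The members lie together, apart from 4: B2m is on chromosome 2, Nlrc5 on 8, Ciita on 16 and Cd74 on 18 of GRCm38 (mm10), and the other 25 are on chromosome 17. There H2-K1 spans chr17:33996017-34000347 on the minus strand, H2-Aa chr17:34282744-34287823 on the minus strand and H2-D1 chr17:35262730-35267499 on the plus strand. RefSeq promoter windows of GRCm38.p6, from 250 bases before to 50 after the annotated start, were used for 20 of the 29 members. Windows are shown for genes of both classes that had a higher mean level in the infarcted than in the non-infarcted LV. In the atria these genes did not all move alike. H2-K1 and H2-D1 are the classical class I heavy chains, B2m their shared light chain, and H2-Aa and H2-Eb1 class II chains. Capitals mark the match to GATTGG, the core of the Y box (CCAATC on the other strand), to a core of the class II X box, to an interferon element built of paired GAAA, and to a kappa B element. Both strands were searched, and sequences run 5′ to 3′ on the strand of the gene.
H2-K1, chr17:34000284-34000583, minus strand: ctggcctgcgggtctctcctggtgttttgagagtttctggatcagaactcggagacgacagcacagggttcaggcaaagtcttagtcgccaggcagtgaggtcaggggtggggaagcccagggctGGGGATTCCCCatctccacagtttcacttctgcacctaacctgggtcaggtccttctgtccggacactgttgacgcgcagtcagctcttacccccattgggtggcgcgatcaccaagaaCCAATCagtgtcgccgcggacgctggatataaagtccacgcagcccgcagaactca
H2-D1, chr17:35262844-35263143, plus strand: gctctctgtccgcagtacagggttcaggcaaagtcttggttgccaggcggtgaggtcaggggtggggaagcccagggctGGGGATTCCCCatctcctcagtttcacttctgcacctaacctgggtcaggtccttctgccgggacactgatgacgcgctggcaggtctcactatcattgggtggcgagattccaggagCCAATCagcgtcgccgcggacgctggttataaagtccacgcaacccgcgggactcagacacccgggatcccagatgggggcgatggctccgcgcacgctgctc
B2m, chr2:122147437-122147736, plus strand: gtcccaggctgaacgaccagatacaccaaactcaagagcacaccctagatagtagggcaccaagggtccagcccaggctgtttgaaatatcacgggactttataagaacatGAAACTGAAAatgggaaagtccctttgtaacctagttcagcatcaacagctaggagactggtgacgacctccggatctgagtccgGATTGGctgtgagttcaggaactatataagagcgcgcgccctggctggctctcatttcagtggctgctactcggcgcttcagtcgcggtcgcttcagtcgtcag
H2-Aa, chr17:34287774-34288073, minus strand: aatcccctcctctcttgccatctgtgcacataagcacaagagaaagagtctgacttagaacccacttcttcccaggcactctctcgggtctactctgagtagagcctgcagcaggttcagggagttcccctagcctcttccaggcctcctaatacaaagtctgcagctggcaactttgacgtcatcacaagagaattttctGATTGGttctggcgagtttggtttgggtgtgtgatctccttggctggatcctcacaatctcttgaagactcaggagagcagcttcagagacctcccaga
H2-Eb1, chr17:34305617-34305916, plus strand: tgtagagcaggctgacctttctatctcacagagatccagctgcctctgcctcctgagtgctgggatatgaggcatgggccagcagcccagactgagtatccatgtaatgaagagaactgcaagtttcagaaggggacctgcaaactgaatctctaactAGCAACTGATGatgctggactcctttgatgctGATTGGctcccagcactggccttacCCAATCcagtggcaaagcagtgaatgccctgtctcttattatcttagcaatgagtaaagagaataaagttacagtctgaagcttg

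GATTGG stood in the windows of 16 of the 20 members, where 16.1% of all 32851 windows hold it. It was in 9 of 13 class I members, at position -54 of B2m and -53 of H2-D1 relative to the start. The windows of H2-K1 and H2-D1 are alike over long stretches, so their matches are not independent. H2-Ke6, of neither class, is also among the 16, with the match at -31. Of the class II members with a window that was searched it was in 6 of 6, at -49 of H2-Aa. H2-Ab1 and Ciita had no window in this set. Windows on chromosome 18, where Cd74 lies, were left out for the members but not for the share of all windows. Cd74 was therefore not searched. A member counts if any of its windows holds the match, whereas the share of all windows is per window. For H2-DMa the match was in a window at -199, and another of its windows had none. The kappa B element was in the windows of H2-K1, H2-D1 and H2-Q6, and in 0.0304% of all windows. The interferon element was in B2m, H2-T22 and H2-T23 (3.44% of all windows), in B2m at position -139. The X box core was in H2-Eb1 alone among the 20, at -92, and in 0.07% of all windows. These are matches of letters in a window, not measured binding, and genes without a match may carry variants of the same element.

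In the infarcted LV nearly the whole class I pathway was higher than in the non-infarcted LV. Most of class II was higher too with liraglutide. For PBS the count of class II members called depended on whether libraries of the same number were paired. With liraglutide 23 of the 25 members tested rose and 1 fell, and the fit called 27.3% of all 13022 genes tested higher and 22.4% lower. With PBS 13 of 23 rose and 1 fell, where 25.7% of 12831 genes were higher and 21.7% lower. With the replicate number as a block, described further on, 21 of 23 rose with PBS, where 27.6% of genes were higher and 25.0% lower, and 6 of 7 class II members were among them. The member that fell in all 3 fits was H2-Ke6. By class, 16 of 16 tested class I members rose with liraglutide and 12 of 15 with PBS, with median log2 fold changes of 1.23 and 1.06. The 9 class II members had medians of 1.20 (8 tested, 7 rose) and 0.91 (7 tested, 1 rose), and the median of all genes was -0.02 in both comparisons. Members too low to be tested in a comparison are not in these counts.

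Among the heavy chains, H2-K1 had 378, 264 and 394 CPM in the infarcted LV with liraglutide, against 166, 141 and 145 CPM in the non-infarcted LV. With PBS it had 276, 323 and 395 CPM in the infarcted LV, against 119, 144 and 181 CPM in the non-infarcted LV. Every infarcted library lay above every non-infarcted one, with log2 fold changes of 1.17 (SE 0.119, adjusted p = 3.80e-06) with liraglutide and 1.10 (SE 0.219, adjusted p = 0.00924) with PBS. H2-D1 averaged 116 ± 13.9 CPM in infarcted LV and 47.2 ± 6.77 CPM in non-infarcted LV with liraglutide (log2 fold change 1.28, adjusted p = 1.73e-07), and 110.0 ± 12.9 CPM and 47.0 ± 6.96 CPM with PBS (1.17, adjusted p = 3.61e-05). 

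The nonclassical heavy chains of the Q region had log2 fold changes above these, though the differences between genes were not tested. H2-Q4 had 146, 106 and 178 CPM in the infarcted LV with liraglutide, against 48.0, 40.9 and 46.4 CPM in the non-infarcted LV (log2 fold change 1.64, SE 0.149, adjusted p = 1.10e-05). With PBS its values were 116, 130.4 and 160.0 CPM in infarcted LV, against 37.4, 43.3 and 56.5 CPM in non-infarcted LV (1.51, adjusted p = 0.00167). H2-Q6 had 55.4, 32.2 and 62.5 CPM in infarcted LV with liraglutide, against 20.4, 13.3 and 13.6 CPM in non-infarcted LV, and rose (1.63, adjusted p = 0.0036). In PBS hearts it had 32.4, 37.9 and 68.0 CPM in infarcted LV, against 11.7, 12.7 and 25.7 CPM in non-infarcted LV. Those groups did not overlap either, but the third replicate was high in both regions and the log2 fold change of 1.40 did not pass (adjusted p = 0.0838). The pseudogene H2-K2 averaged 10.1 ± 2.52 CPM in infarcted and 2.97 ± 0.465 CPM in non-infarcted LV with liraglutide (1.71, adjusted p = 5.97e-06) and 8.36 ± 0.967 CPM and 2.27 ± 0.245 CPM with PBS (1.81, adjusted p = 4.18e-06). H2-Q5 rose by 1.37 and 1.75 at levels of at most 13.3 CPM.

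How reads of such similar genes were shared out is uncertain. Of all stretches of 50 bases in the annotated transcripts, 9.63% of those of H2-K1, 12.8% of H2-D1, 21.8% of H2-Q4, 32% of H2-Q6 and 36.4% of H2-Q5 occur in another gene as well, often in H2-Q7, which had no count in any library. No such stretch was shared for B2m, Cd74, H2-Ab1, H2-Eb1, H2-DMa, H2-Ob, Ciita or Nlrc5.

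H2-T23, which encodes the nonclassical Qa-1 heavy chain, a ligand of inhibitory receptors of natural killer cells, was steady within groups. It averaged 48.1 ± 7.67 CPM in infarcted and 23.9 ± 1.65 CPM in non-infarcted LV with liraglutide (0.98, adjusted p = 3.30e-06), and 43.4 ± 2.14 CPM and 21.4 ± 1.09 CPM with PBS (0.97, adjusted p = 1.20e-06). H2-M3, whose product presents formylated peptides, averaged 7.23 ± 2.09 CPM in infarcted and 4.05 ± 1.29 CPM in non-infarcted LV with liraglutide (0.83, adjusted p = 0.0115), and 8.18 ± 1.61 CPM and 3.82 ± 0.751 CPM with PBS (1.03, adjusted p = 0.00111). H2-T10, a low gene at 1.69 to 4.63 CPM in infarcted and 1.06 to 1.90 CPM in non-infarcted LV, rose in both treatments. H2-T24 had the smallest log2 fold change among the heavy chains tested, 0.58 with liraglutide (adjusted p = 0.0101) and 0.47 with PBS (adjusted p = 0.0506).

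Some calls of low members rested on single libraries. H2-T10 with PBS was lost without infarcted replicate 2 (adjusted p = 0.0665) or 3 (0.0781) or non-infarcted replicate 1 (0.0824). With liraglutide, H2-T24 was lost without infarcted replicate 1 (0.0752), and H2-M3 without infarcted replicate 1 (0.0666) or non-infarcted replicate 2 (0.0655). H2-Q10, at 1.10 to 2.24 CPM in infarcted and 0.303 to 0.667 CPM in non-infarcted LV, was lost without infarcted replicate 2 (0.055).

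B2m, the light chain, rose as the heavy chains did. It had 393, 359.9 and 464 CPM in the infarcted LV with liraglutide, against 212, 191 and 180.5 CPM in the non-infarcted LV (1.04, SE 0.0932, adjusted p = 4.10e-07). PBS hearts had 327, 387 and 448 CPM in infarcted LV, against 172, 183 and 229 CPM in non-infarcted LV (0.93, SE 0.160, adjusted p = 0.00212). The ranges of the regions were far apart, from 327 CPM upwards in infarcted and up to 229 CPM in non-infarcted LV.

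Among the transporter genes Tap1 and Tap2 and tapasin, the log2 fold change was largest for Tap1 and smallest for tapasin in both treatments. Tap1 averaged 29.6 ± 3.88 CPM in infarcted and 11.1 ± 1.60 CPM in non-infarcted LV with liraglutide (1.39, SE 0.126), and 28.5 ± 8.47 CPM and 11.7 ± 2.29 CPM with PBS (1.20, SE 0.228). Tap2 had 58.9 ± 8.67 CPM in infarcted and 35.6 ± 1.05 CPM in non-infarcted LV with liraglutide (0.70, SE 0.0972), and 58.5 ± 4.60 CPM and 34.2 ± 3.28 CPM with PBS (0.73, SE 0.0980). Tapbp had 107 ± 7.61 CPM in infarcted and 75.1 ± 3.64 CPM in non-infarcted LV with liraglutide (0.49, SE 0.0789), and 111 ± 4.83 CPM and 72.6 ± 4.84 CPM with PBS (0.55, SE 0.0735). All 3 passed in both treatments, with edgeR adjusted p values from 4.48e-07 (Tap1, liraglutide) to 0.00284 (Tap1, PBS). The differences between these 3 changes were not tested. Exons of Tap1 overlap Psmb9 on the opposite strand, and no source used here gives the strand setting of the counting, so reads of such pairs cannot be told apart.

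The transactivator Nlrc5 had 26.0, 16.3 and 26.7 CPM in the infarcted LV with liraglutide, against 9.40, 8.22 and 9.17 CPM in the non-infarcted LV (1.33, adjusted p = 8.57e-06). With PBS the values were 15.5, 18 and 27.3 CPM in infarcted LV, against 8.87, 7.71 and 14.3 CPM in non-infarcted LV. Its groups did not overlap in either treatment, and with PBS the log2 fold change of 0.90 missed the threshold (adjusted p = 0.0563).

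**Figure D1:**
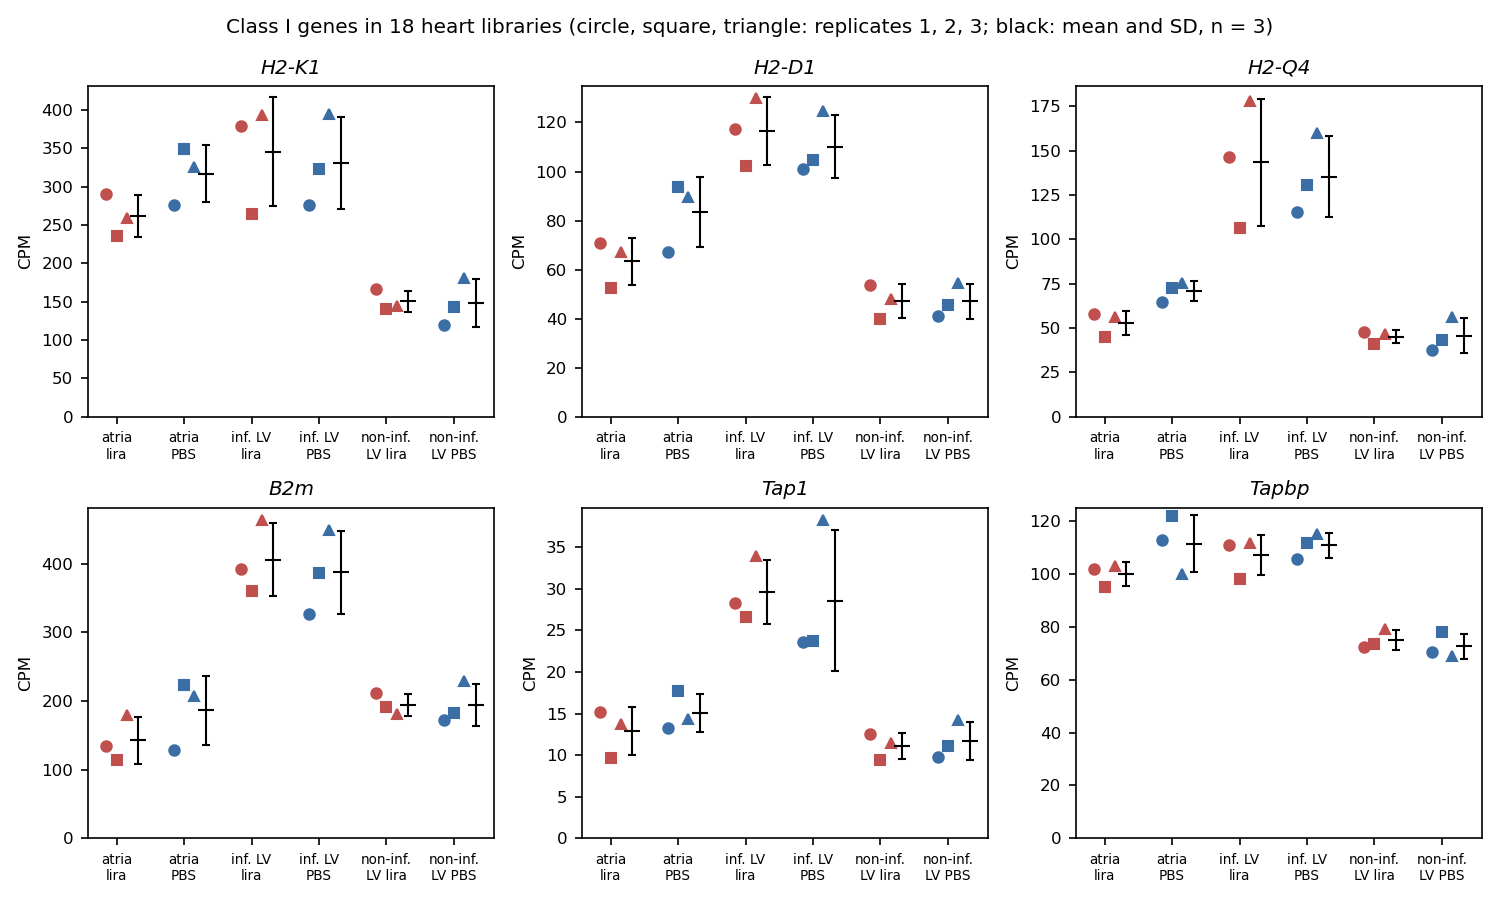
Level in CPM (vertical axes, from 0) of 6 class I genes in each of the 18 libraries, by region and treatment (horizontal axes; lira is liraglutide, inf. is infarcted; red liraglutide, blue PBS), with the mean and SD of 3 libraries in black. The infarcted LV libraries stand above the non-infarcted ones for each of the 6 genes, and the atria reach the level of the infarcted LV for H2-K1 and Tapbp but not for B2m.

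Of the class II genes, Cd74 had 244, 173 and 142 CPM in the infarcted LV with liraglutide, against 88.7, 82.2 and 62.7 CPM in the non-infarcted LV (1.24, SE 0.227, adjusted p = 0.00496). Its values with PBS were 147, 134 and 241 CPM in the infarcted LV, against 67.5, 70.5 and 117 CPM in the non-infarcted LV. Neither pair of groups overlapped. The log2 fold change with PBS was 0.96 with an SE of 0.388, which did not pass (adjusted p = 0.112).

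H2-Aa followed the same course, with 114, 84.1 and 82.7 CPM in infarcted LV with liraglutide, against 40.7, 39.2 and 32.4 CPM in non-infarcted LV (1.30, adjusted p = 2.84e-06). In hearts given PBS it had 69.2, 64.3 and 119 CPM in infarcted LV, against 33.9, 35.1 and 65.1 CPM in non-infarcted LV (0.83, adjusted p = 0.195). Here the third PBS replicate of the non-infarcted LV reached the level of the lower infarcted libraries, so that the groups overlapped. H2-Ab1 had 57.8, 49.7 and 96.5 CPM in infarcted LV with PBS, against 26.4, 25.9 and 48.9 CPM in non-infarcted LV (0.93, adjusted p = 0.156), and H2-Eb1 62.9, 55.2 and 99.1 CPM, against 27.7, 28.3 and 54.1 CPM (0.91, adjusted p = 0.158). Neither passed, and neither pair of groups overlapped. With liraglutide H2-Ab1 had 86.4, 58.8 and 56.5 CPM in infarcted LV, against 31.4, 30.6 and 24.3 CPM in non-infarcted LV, and rose (1.20, adjusted p = 1.42e-04). H2-Eb1 had 98.2, 70.2 and 64.1 CPM in infarcted LV, against 34.7, 36.0 and 28.9 CPM in non-infarcted LV, and rose too (1.20, adjusted p = 7.77e-05).

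In both LV regions the PBS library with the highest Cd74 and class II chains was replicate 3, and the ratios between regions varied less than the levels did. For Cd74 the infarcted library held 2.75, 2.10 and 2.26 times the CPM of the non-infarcted library of the same number with liraglutide, and 2.19, 1.90 and 2.07 times with PBS, in replicates 1 to 3. For H2-Aa these ratios were 2.81, 2.14 and 2.55 with liraglutide and 2.04, 1.83 and 1.82 with PBS. Across all genes, libraries of the 2 LV regions with the same number deviated together from their group means in both treatments, so a fit with the number as a block was also used. The labels do not say which animal a number stands for. The small p values of the block fit hold only if a number marks a true pair, and 6 libraries leave this fit few degrees of freedom. The 6 class II members that rose with PBS in this fit were Cd74 (0.98, adjusted p = 2.68e-13), H2-Aa (0.87, adjusted p = 2.00e-11), H2-Ab1 (0.97, adjusted p = 8.09e-12), H2-Eb1 (0.96, adjusted p = 3.48e-11), H2-DMb1 (0.67, adjusted p = 0.0301) and H2-DMa. Class I gave 15 of 15, with H2-Q6 (1.42, adjusted p = 2.82e-14), H2-T24 (0.45, adjusted p = 0.0175) and Nlrc5 (0.93, adjusted p = 4.15e-07) added to the 12 called without it. Ciita did not pass (0.63, adjusted p = 0.0938). Without a block but also without PBS replicate 3 of the non-infarcted LV, 21 members were called, Cd74 among them (1.29, adjusted p = 0.0455). In the fit with liraglutide the block left the count at 24.

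**Figure D2:**
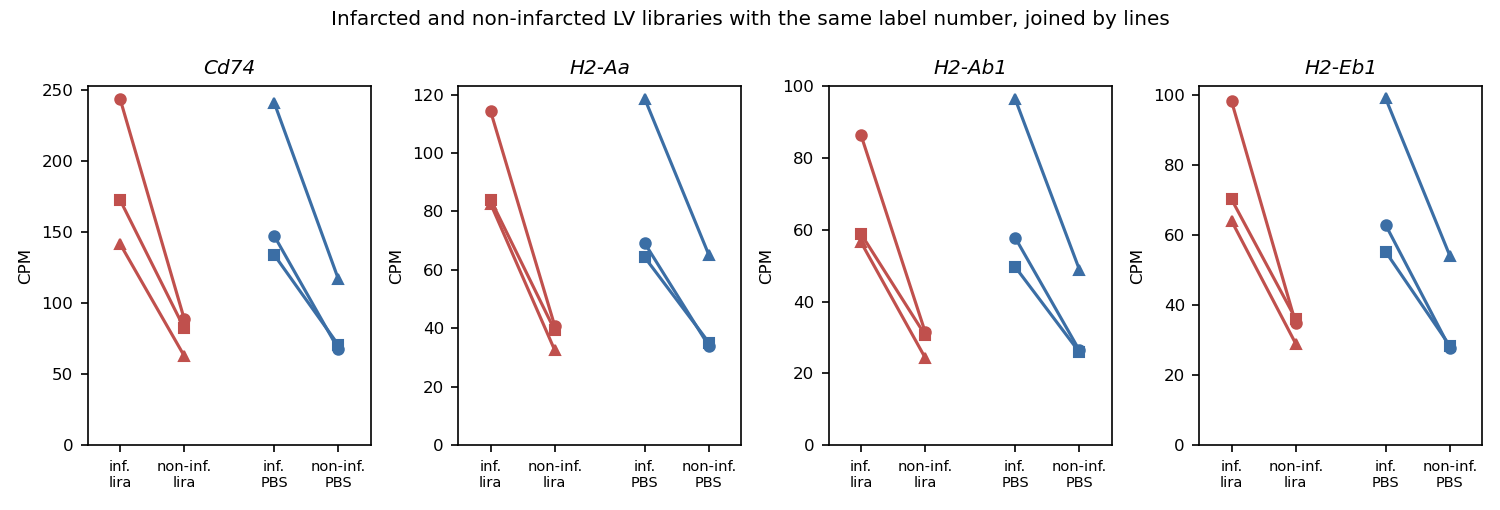
Level in CPM (vertical axes, from 0) of Cd74 and 3 class II chains in infarcted LV and non-infarcted LV libraries, where a line joins the libraries with the same number in the labels (circle, square and triangle are replicates 1, 2 and 3; red liraglutide, blue PBS). Every line falls from the infarcted to the non-infarcted library, and with PBS the triangles stand highest at both ends, for Cd74 at 241 and 117 CPM.

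The peptide editor of class II is lower in abundance. H2-DMa had 7.74, 6.98 and 4.99 CPM in infarcted LV with liraglutide, against 3.72, 2.29 and 2.84 CPM in non-infarcted LV (1.16, adjusted p = 5.84e-04), and 7.27, 6.03 and 8.64 CPM, against 2.64, 2.07 and 3.36 CPM, with PBS (1.37, adjusted p = 2.40e-04). It was the one class II member to rise with PBS without a block, and its exons overlap Brd2 on the opposite strand. Its partner H2-DMb1 rose with liraglutide (0.93, adjusted p = 0.0272), a call lost without infarcted replicate 1 (0.139) or 2 (0.0628) or non-infarcted replicate 2 (0.115), and with PBS it had 0.62 (adjusted p = 0.0808). H2-DMb1 shares 22.7% of its stretches of 50 bases with its near copy H2-DMb2, which stayed at 0.152 to 1.25 CPM in the LV. H2-Ob, the beta chain of H2-O, which restrains H2-DM, was tested with liraglutide alone and rose (1.64, adjusted p = 0.00236), with 1.57 to 2.41 CPM in infarcted and 0.303 to 0.834 CPM in non-infarcted LV.

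Ciita did not rise in either treatment. It had 2.67, 1.70 and 2.31 CPM in infarcted LV with liraglutide, against 1.14, 1.40 and 3.00 CPM in non-infarcted LV (0.27, adjusted p = 0.54). With PBS the gene had 2.29, 1.76 and 3.97 CPM in infarcted LV, against 1.12, 1.5 and 2.4 CPM in non-infarcted LV (0.57, adjusted p = 0.225). The groups overlapped in both treatments, with the third non-infarcted replicate the highest of its group each time. Exons of Ciita overlap Dexi on the opposite strand, which the counting may not have separated.

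**Figure D3:**
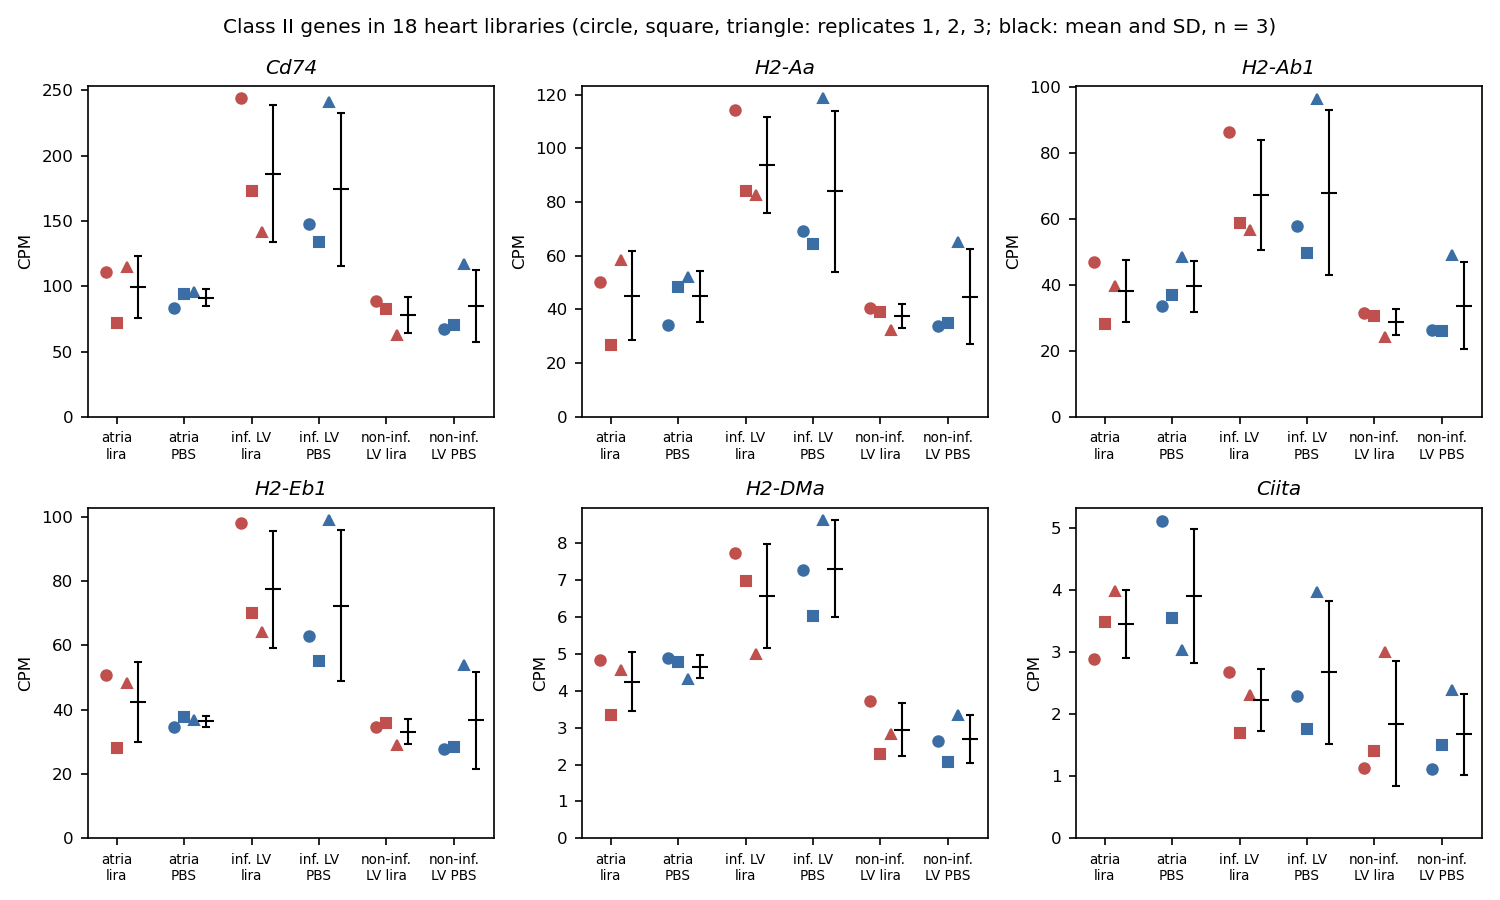
Level in CPM (vertical axes, from 0) of 6 class II genes in each of the 18 libraries, by region and treatment (horizontal axes; lira is liraglutide, inf. is infarcted; red liraglutide, blue PBS), with the mean and SD of 3 libraries in black. Cd74 and the 3 chains are highest in the infarcted LV, where Cd74 spans 134 to 244 CPM, while Ciita is highest in an atrial library, at 5.12 CPM.

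H2-Ke6, a short-chain dehydrogenase that shares the H2 symbol by its place in the region, was lower in the infarcted LV. It shares 70.5% of its stretches of 50 bases with the overlapping Gm20427. It averaged 47.6 ± 2.52 CPM in infarcted and 54.1 ± 1.77 CPM in non-infarcted LV with liraglutide (-0.21, adjusted p = 0.0474), and 45.6 ± 1.07 CPM and 56.4 ± 0.662 CPM with PBS (-0.36, adjusted p = 0.0027). The call with liraglutide was lost without any 1 of 5 of the 6 libraries (adjusted p 0.0509 to 0.158), and kept without infarcted replicate 3 (0.0463).

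Weighing both classes by their summed CPM, the infarcted LV held 1373 ± 223 CPM of class I and 441 ± 108 CPM of class II with liraglutide, and 1313 ± 208 and 415 ± 140 CPM with PBS. The non-infarcted LV held 630 ± 42.4 CPM of class I and 185 ± 24.1 CPM of class II with liraglutide, and 621 ± 93.6 and 208 ± 75.8 CPM with PBS. The ratio of class II to class I was thus 0.327 ± 0.0876 and 0.312 ± 0.0636 in infarcted LV with liraglutide and PBS, and 0.294 ± 0.0353 and 0.328 ± 0.0708 in non-infarcted LV, which is within the spread of the libraries. Cd74 kept its proportion to the summed chains of H2-Aa, H2-Ab1 and H2-Eb1, at 0.697 to 0.816 in infarcted LV, 0.695 to 0.830 in non-infarcted LV and 0.697 to 0.865 in atria.

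Per length the members differ by orders of magnitude. In CPM per kilobase of annotated exon, the infarcted LV with PBS had a level of 450.3 for B2m, 113 for H2-K1, 104 for Cd74, 52.1 for H2-Q4, 42.7 for H2-D1, 37.2 for H2-Eb1, 26.5 for H2-Ab1 and 22.1 for H2-Aa. Transporter and regulators were lower on that scale, with 15.5 for Tap2, 5.21 for Tap1, 2.39 for Nlrc5 and 0.281 for Ciita. In the non-infarcted LV with PBS the levels per kilobase were 226 for B2m, 50.4 for H2-K1, 50.6 for Cd74 and 0.176 for Ciita.

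Genes that act with the members were counted from lists chosen with earlier results of these data known, and their values here are for infarcted against non-infarcted LV. Of all genes tested, 27.3% were called higher and 22.4% lower with liraglutide and 25.7% and 21.7% with PBS, so that counts such as 2 of 5 or 3 of 7 are near the background. Among 5 immunoproteasome genes, which cut peptides for class I, 2 rose in the infarcted LV in each treatment: Psmb8 (22.5 ± 4.06 against 10.3 ± 1.14 CPM with liraglutide; 23.2 ± 6.19 against 10.1 ± 0.923 CPM with PBS) and Psmb9. Of 9 tested genes of the interferon gamma pathway, 8 rose with liraglutide and 6 with PBS. Irf1, a transcription factor of class I promoters, averaged 88.6 ± 25.7 against 23.6 ± 2.42 CPM with liraglutide (1.88, adjusted p = 6.20e-05) and 91.4 ± 9.84 against 22.4 ± 0.396 CPM with PBS (1.98, adjusted p = 2.94e-09). Irf8, a factor of macrophages and dendritic cells, had 30.6 ± 5.79 against 8.43 ± 0.711 CPM with liraglutide (1.82) and 29.6 ± 0.395 against 8.05 ± 1.29 CPM with PBS (1.83). Ifng itself was at 0 to 0.278 CPM in every library and was not tested. All 5 tested genes of a list of costimulation rose in both treatments, and this list also holds Cd274 (PD-L1), an inhibitory ligand. With PBS the costimulatory ligand gene Cd80 had 7.27 ± 1.64 against 2.7 ± 0.156 CPM, and Cd274 had 24.3 ± 6.32 against 8.30 ± 1.27 CPM. Of 7 factors that bind class II promoters together with CIITA, 2 rose and 1 fell with liraglutide and 3 rose and 2 fell with PBS. Creb1 (0.68) and Nfya (0.72) were among those that rose with PBS, and Nfyc (-0.52) fell. Of 8 genes of class II processing and trafficking, 4 rose and 1 fell with liraglutide, and 5 rose and 2 fell with PBS. Ctss, which trims Cd74, and Ifi30, which reduces disulfides of antigens, rose by 0.65 and 0.83 with PBS, and the protease gene Ctsd (-0.22) and the ubiquitin ligase gene Marchf8 (-0.28) fell.

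Markers of cell types moved with the members, in the same comparisons and against the same background (27.3% higher and 22.4% lower with liraglutide, 25.7% and 21.7% with PBS). Macrophage markers rose for 6 of 7 genes in each treatment, with Adgre1 at 19.2 ± 2.78 against 6.51 ± 1.37 CPM (infarcted against non-infarcted LV) with liraglutide and 17.3 ± 1.33 against 6.94 ± 0.352 CPM with PBS, and the list summed to 224 to 295 CPM in infarcted and 140 to 188 CPM in non-infarcted LV. The B cell marker Cd79b averaged 1.44 ± 0.450 against 0.25 ± 0.179 CPM with liraglutide (2.44, adjusted p = 7.63e-04) and 1.23 ± 0.149 against 0.399 ± 0.184 CPM with PBS (1.5, adjusted p = 0.0158). Cd4 was the one T cell marker high enough to test. Endothelial markers rose for 3 of 3 genes, with list sums of 1223 to 1470 CPM in infarcted and 670 to 717 CPM in non-infarcted LV, and fibroblast markers for 3 of 3, with sums of 1133 to 1390 and 496 to 619 CPM. Cardiomyocyte markers fell for 5 of 5 genes with liraglutide and 4 of 5 with PBS. Of 8 markers of conventional dendritic cells, Zbtb46 rose (0.84 with PBS) and Xcr1 stayed at 0 to 0.376 CPM in the LV. The list summed to 23.6 to 33.5 CPM in infarcted and 16.5 to 17.5 CPM in non-infarcted LV. Zbtb46 was the largest part of this sum, at 14.1 to 19.2 CPM in infarcted and 7.96 to 10.1 CPM in non-infarcted LV. With PBS Flt3 had 0.186 to 0.234 CPM in infarcted and 0.118 to 0.36 CPM in non-infarcted LV. Clec9a, Itgax and Ccr7 reached higher values in infarcted than in non-infarcted LV. Whether these cells were more numerous was not tested. The part of these cell types in the change of the members was not tested.

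Where the atria stood relative to the LV regions differed from gene to gene. Against the non-infarcted LV, 7 members rose and 3 fell of 26 tested with liraglutide (background 24.6% higher, 22.9% lower), and 9 rose and 2 fell of 25 with PBS (26.3% higher, 25.6% lower). Shares this near to the background are no result about the members. The first count was 16 without atrial liraglutide replicate 2 and 6 without non-infarcted liraglutide replicate 1, and the second was 7 without non-infarcted PBS replicate 1 or 2. Against the infarcted LV, 2 rose and 19 fell of 26 with liraglutide (22.1% higher, 21.2% lower), and 1 rose and 16 fell of 25 with PBS (26.2% higher, 26.1% lower). These comparisons share libraries with those above.

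H2-K1 had 290.2, 236 and 259 CPM in the atria with liraglutide and 277, 349 and 325 CPM with PBS. It rose against the non-infarcted LV (0.80, adjusted p = 5.58e-04, with liraglutide; 0.97, adjusted p = 0.00128, with PBS). Against the infarcted LV the difference was -0.33 (SE 0.158, adjusted p = 0.123) and -0.09 (SE 0.124, adjusted p = 0.576), with overlapping groups. H2-D1 had 70.8, 52.5 and 67.1 CPM in the atria with liraglutide and 67.1, 93.8 and 89.7 CPM with PBS, with group means between those of both LV regions, and differed from each of them in both treatments. It was higher than in the non-infarcted LV by 0.43 (adjusted p = 0.0331) and 0.70 (adjusted p = 0.00469), and lower than in the infarcted LV, at -0.81 (adjusted p = 8.67e-04) and -0.42 (adjusted p = 0.0144). With liraglutide the first of these calls was lost without atrial replicate 1 (0.112) or non-infarcted replicate 2 (0.147) or 3 (0.0833), and with PBS the last without infarcted replicate 3 (0.0655).

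B2m differed from both heavy chains in this. It had 135, 114 and 180.1 CPM in the atria with liraglutide, lower than in the non-infarcted LV (-0.46, SE 0.124, adjusted p = 0.0127), a call lost without non-infarcted replicate 1 (0.0577). For PBS the values were 129, 223 and 207 CPM in the atria (-0.20, SE 0.228, adjusted p = 0.509). It fell against the infarcted LV by 1.45 (adjusted p = 3.13e-05) with liraglutide and by 1.09 (adjusted p = 0.00274) with PBS. The CPM of B2m over the summed CPM of H2-K1 and H2-D1 was 0.373 to 0.553 in the 6 atria, 0.792 to 0.981 in the 6 infarcted LV libraries and 0.935 to 1.07 in the 6 non-infarcted ones, so the atria did not overlap the LV. By group this ratio was 0.440 ± 0.0982 and 0.459 ± 0.0731 in atria, 0.886 ± 0.0948 and 0.878 ± 0.0232 in infarcted LV, and 0.985 ± 0.0635 and 1.00 ± 0.0592 in non-infarcted LV, each with liraglutide and with PBS.

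The Q and T region genes split. H2-Q4 had 57.8, 44.8 and 56.0 CPM in the atria with liraglutide and 64.5, 72.8 and 75.5 CPM with PBS, far from the 106 to 178 CPM of the infarcted LV (-1.37 and -0.96, adjusted p = 2.09e-04 and 3.16e-05). H2-Q6 had 10.1 to 19.5 CPM in the atria and fell against the infarcted LV, at -2.06 (adjusted p = 2.87e-04) with liraglutide and -1.80 with PBS (adjusted p = 0.0123; 0.0689 without atrial PBS replicate 1). H2-T24 was lower in the atria than in either LV region, with 3.47, 3.08 and 7.37 CPM with liraglutide and 5.43, 4.46 and 4.47 CPM with PBS. Its log2 fold change was -1.11 (adjusted p = 0.00563) and -0.90 (adjusted p = 0.00154) against the non-infarcted LV, where its own level was 7.58 to 10.6 CPM. H2-T23 rose against the non-infarcted LV by 0.40 and 0.43, and with liraglutide this was lost without non-infarcted replicate 1 (0.0663) or 2 (0.0757). The low gene H2-M5, at 0.425 to 0.961 CPM in the atria and 0 to 0.934 CPM in the LV, was tested in 1 region comparison and rose there (1.97, adjusted p = 0.0279, atria against non-infarcted LV with liraglutide), which was lost without atrial replicate 1 (0.0584) or non-infarcted replicate 1 (0.0671) or 3 (0.0958).

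H2-Q10, which encodes a soluble class I molecule known from the liver, had the largest log2 fold change of the members in the atria against the non-infarcted LV, in both treatments. It had 3.10, 2.01 and 6.82 CPM in the atria with liraglutide and 4.57, 18.6 and 9.90 CPM with PBS, where the LV libraries held 0.303 to 2.24 CPM. It rose against the non-infarcted LV with liraglutide (2.86, adjusted p = 0.00115) and with PBS (3.91, adjusted p = 0.00181). Against the infarcted LV it rose with PBS (3.80, adjusted p = 0.00375), while the call with liraglutide (1.36, adjusted p = 0.0344) was lost without atrial replicate 3 (0.0824) or infarcted replicate 1 (0.119) or 3 (0.122). The highest value, 18.6 CPM, belonged to the atrial library with the fat cell markers. Without that library the difference from the non-infarcted LV with PBS was 3.25 (adjusted p = 7.07e-05). The stretches of 50 bases that H2-Q10 shares with other genes, 19.0% of its own, are shared most often with H2-Q7.

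Tapbp in the atria overlapped the 98.3 to 115 CPM of the infarcted LV, at 102, 95.0 and 103 CPM with liraglutide and 113, 122 and 100.1 CPM with PBS. Against the non-infarcted LV it rose by 0.42 (adjusted p = 0.00602) and 0.49 (adjusted p = 8.19e-04). Tap1, at 9.70 to 17.7 CPM in the atria, fell against the infarcted LV (-1.14 and -0.90, adjusted p = 5.16e-04 and 0.00195). H2-Ke6 was lower in the atria, at 32.2 to 39.7 CPM, than in the non-infarcted LV, at 52.2 to 57.2 CPM (-0.70 and -0.69, adjusted p = 7.60e-04 and 1.01e-04).

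Against the non-infarcted LV, 0 of 8 tested class II members passed with liraglutide and 2 of 8 with PBS, Ciita and H2-DMa, which is a share near the background of 24.6% of all genes higher with liraglutide and 26.3% with PBS. The call of H2-DMa (0.68, adjusted p = 0.0367) was lost without any 1 of 5 of the 6 libraries (0.062 to 0.146), and kept without non-infarcted replicate 3. Set against the infarcted LV, 5 of 9 class II members fell with liraglutide (21.2% of all genes lower) and 4 of 8 with PBS (26.1% lower). Several of these calls were fragile under the 13 alternative fits described further on. With liraglutide H2-Ob was lost in 7 of them, H2-Ab1 in 4 and H2-Eb1 in 3, and with PBS H2-DMa was lost in 2. Cd74 had 111, 71.9 and 115 CPM with liraglutide and 83.7, 94.4 and 95.8 CPM with PBS, and its log2 fold change against the non-infarcted LV was 0.35 (SE 0.176, adjusted p = 0.137) and -0.03 (SE 0.243, adjusted p = 0.931). The sign of the second depends on single libraries, and without non-infarcted PBS replicate 3 it was 0.30 (adjusted p = 0.0481). Against the infarcted LV Cd74 fell (-0.85, adjusted p = 0.0154, with liraglutide; -0.95, adjusted p = 0.00895, with PBS), which was lost without atrial liraglutide replicate 3 (0.0642) and atrial PBS replicate 1 (0.0789). H2-Aa had 50.1, 26.8 and 58.6 CPM in the atria with liraglutide and 34.2, 48.5 and 52.2 CPM with PBS, and fell against the infarcted LV with liraglutide (-1.0, adjusted p = 0.0126) and with PBS (-0.92, adjusted p = 0.0358). The call with PBS was lost without atrial replicate 1 (0.140) or 2 (0.0847) or infarcted replicate 1 (0.0546).

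Ciita did not follow the class II chains. It had 2.89, 3.48 and 3.98 CPM in the atria with liraglutide and 5.12, 3.56 and 3.03 CPM with PBS, and rose against the non-infarcted LV with PBS (1.18, SE 0.340, adjusted p = 0.0133). That call was lost without non-infarcted replicate 1 (0.0769) or 2 (0.0519), and with liraglutide the difference was 0.92 (SE 0.345, adjusted p = 0.052). Against the infarcted LV, where Cd74 was lower in atria, Ciita had 0.69 (adjusted p = 0.0467) with liraglutide and 0.65 (adjusted p = 0.114) with PBS. The first was lost without any 1 of the 6 libraries (adjusted p 0.057 to 0.178). Among the promoter factors, Rfxank, a subunit of the complex that binds the X box, was listed at 66.1 to 116 CPM in the atria and 9.23 to 15.9 CPM in the LV (2.58 and 3.08 against non-infarcted LV, adjusted p = 2.52e-06 and 1.75e-08), and its exons overlap Nr2c2ap on the opposite strand. The immunoproteasome fell in the atria against the infarcted LV for 5 of 5 genes in each treatment, where 21.2% of all genes were lower with liraglutide and 26.1% with PBS.

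**Figure D4:**
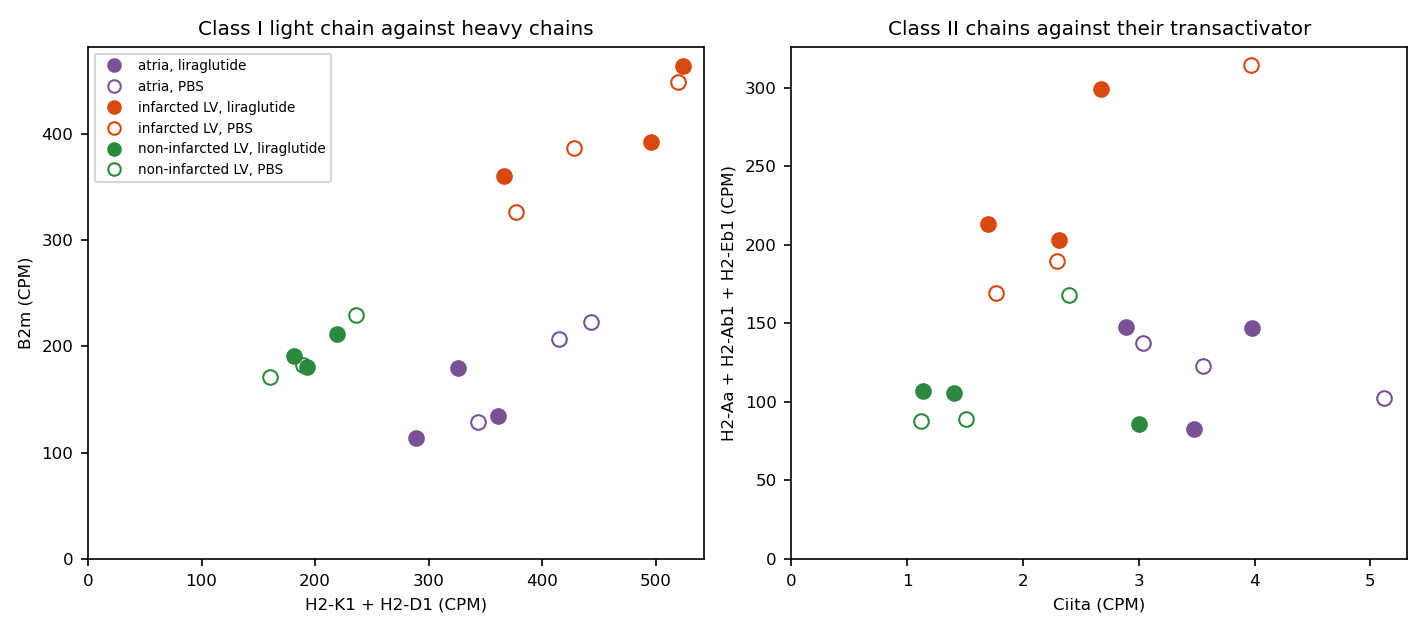
Left, B2m (vertical axis, CPM) against the sum of H2-K1 and H2-D1 (horizontal axis, CPM), and right, the sum of H2-Aa, H2-Ab1 and H2-Eb1 (vertical axis, CPM) against Ciita (horizontal axis, CPM), 1 point per library (filled liraglutide, open PBS; colours give the region). In the left panel the 6 atria have less B2m for their H2-K1 and H2-D1 than the LV libraries, with ratios of 0.373 to 0.553. In the right panel the atria have Ciita at 2.89 to 5.12 CPM, with summed chain levels below those of every infarcted LV library.

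Cell markers were counted in the atria as well. Recruited monocyte markers rose against the non-infarcted LV for 4 of 4 genes and neutrophil markers for 4 of 4 in both treatments, where 24.6% of all genes were higher with liraglutide and 26.3% with PBS, with neutrophil list sums of 72.3 to 632 CPM in atria and 20.0 to 39.4 CPM in non-infarcted LV. Macrophage markers rose for 1 of 7 genes with liraglutide and 6 of 7 with PBS, with sums of 113 to 293 CPM in the atria. Endothelial sums in the atria, at 653 to 752 CPM, were near those of the non-infarcted LV, but the genes in the sum went different ways. Pecam1 had 384 to 492 CPM in the atria against 225 to 259 CPM in the non-infarcted LV. Kdr had 63.6 to 82.3 against 192 to 239 CPM, and Cdh5 181 to 205 against 214 to 238 CPM. The sum therefore does not show a like endothelial content. The part of these cell types in the class I and class II levels of the atria was not tested.

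Liraglutide changed no member past the threshold in any region. In the infarcted LV 0 of 26 tested members passed, as did 0% of all 12988 genes; 1 member had an unadjusted p under 0.05, where 5.24% of genes had. In the non-infarcted LV the count was 0 of 23, with 0% of 12919 genes, and 0 members had an unadjusted p under 0.05 (4.34% of genes). In the atria it was 0 of 27, with 0.00739% of 13530 genes, and 3 members had an unadjusted p under 0.05 (6.87% of genes). DESeq2, voom with quality weights and each of the other alternatives run in a region gave 0 members as well. In the atria these included leaving out liraglutide replicate 3 and PBS replicate 2 together, while liraglutide replicate 1, with Myl2 at 275 CPM, stayed in. The median log2 fold change of the members tested was 0.13 in infarcted LV, 0.003 in non-infarcted LV and -0.06 in atria.

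H2-Q10, H2-Q4 and H2-K2 were the members with an unadjusted p under 0.05. H2-Q10 had 1.38, 2.24 and 1.10 CPM with liraglutide and 0.698, 0.557 and 1.40 CPM with PBS in the infarcted LV (1.07, SE 0.440, adjusted p = 0.933). In the atria, where its values are given above, it had -1.38 (SE 0.573, adjusted p = 0.718). The groups overlapped in both regions, and without the atrial library with fat cell markers the atrial value was -0.76. H2-Q4 stood lower in the atria with liraglutide than with PBS (-0.32, SE 0.129, adjusted p = 0.68) without overlap. H2-K2 had 4.12, 3.81 and 4.85 CPM with liraglutide and 3.23, 2.87 and 3.51 CPM with PBS in the atria (0.53, SE 0.217, adjusted p = 0.693), also without overlap.

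Groups that did not overlap in CPM were counted as well. In the non-infarcted LV 4 of 23 tested members stood higher with liraglutide in all libraries (H2-T23, H2-T10, H2-T24 and H2-K2) and 1 lower (H2-Ke6). Of all genes 5.38% stood higher and 3.58% lower. The share of 4 of 23 is above that of all genes, and this difference was not tested. In the atria 1 of 27 stood higher (H2-K2) and 3 lower (H2-Q4, Nlrc5 and H2-Ke6), where 2.94% and 12.0% did. In the infarcted LV 0 of 26 did in either direction, against 9.69% of all genes. Apart from H2-Ke6 and Nlrc5, the members named here share 3.17% (H2-T24) to 32.9% (H2-T10) of their stretches of 50 bases with other genes. H2-Ke6 shares its stretches with Gm20427, and Nlrc5 shares none. Whether the counts of these members depend on each other was not tested.

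The difference of the liraglutide effect between regions was tested on all 18 libraries, and 0 of 27 members passed in any of the 3 contrasts, as did 0% of 13920 genes. At an unadjusted p under 0.05 the counts were 0 members for infarcted minus non-infarcted LV (1.25% of genes), 0 for atria minus non-infarcted LV (5.39%) and 1 for atria minus infarcted LV (6.49%). That one was H2-Q10 (-2.43, SE 0.801, adjusted p = 0.568). That 7 of 8 class II members rose in the infarcted LV with liraglutide and 1 of 7 with PBS is therefore no shown difference between the treatments.

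**Figure D5:**
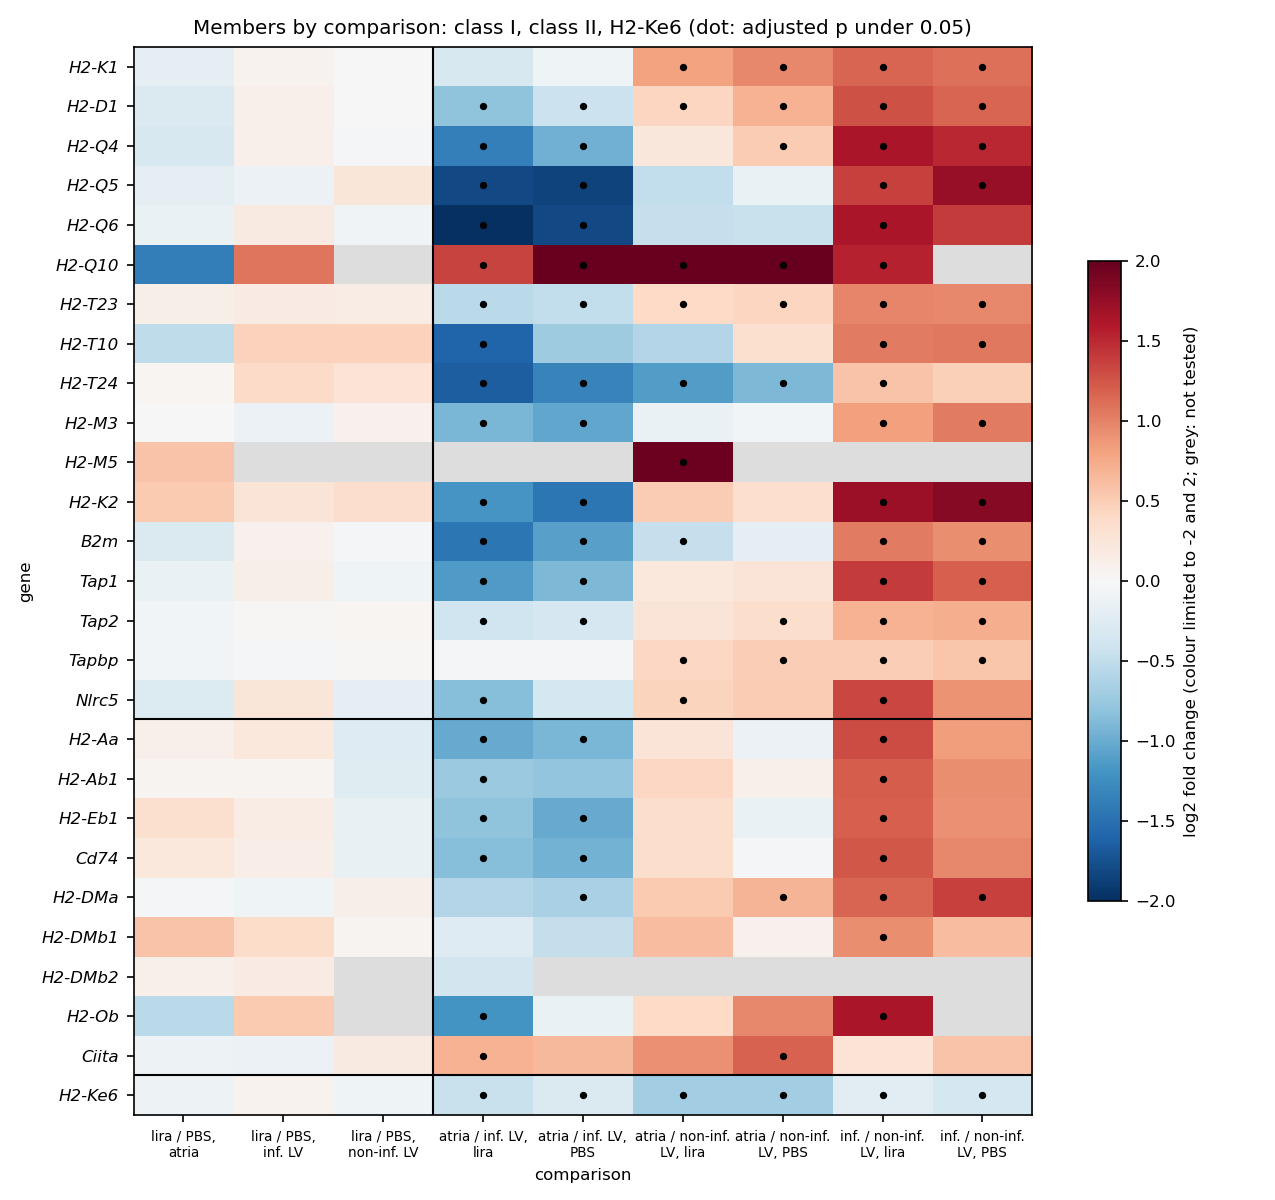
Log2 fold change (colour, limited to -2 and 2; grey not tested) of 27 members (rows; class I, class II and H2-Ke6 parted by lines) in 9 comparisons (columns; the first named group over the second), with a dot where the adjusted p is under 0.05. The 3 columns for liraglutide (lira) hold no dot, while the 2 columns for infarcted against non-infarcted LV are dotted for most class I rows and, with liraglutide, for 7 class II rows.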

How the data were processed

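The authors deposited a table of raw read counts per gene symbol for 18 libraries, 3 in each of 6 groups. Alignment used STAR 2.7.9a against mm10, per the submitters' processing notes, which also name DESeq2. No source used here names the program that counted reads, whether it used strand, or its gene models; the labels' protocols name a stranded kit. From the deposited counts, genes were filtered with filterByExpr, scaled by TMM and tested with edgeR 4.0.16 (quasi-likelihood, robust; R 4.3.3) on the 6 libraries of each of 9 comparisons, with Benjamini-Hochberg adjustment over all genes tested and a threshold of 0.05. The difference of the liraglutide effect between regions was tested in 3 contrasts on all 18 libraries. The fit was tested on simulated data. In the comparison of infarcted with non-infarcted LV with PBS, 100 genes were changed 2-fold and 100 were changed 4-fold among 12831. It recovered 77% and 97% of them, with 18 false calls among the unchanged genes. For liraglutide against PBS in atria, with as many changed among 13530, it recovered 58% and 92%, with 8 false calls. The depth, 4280459 to 21853482 counts per library, limits the low members, and intervals and floors cover counting error only. The labels call the libraries biological replicates and number them across both treatments, with the same numbers in each region, but do not say which animal a number stands for, so p values measure the spread between these libraries.

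The members and gene lists were chosen with earlier results of these data known. Members with enough counts are given by library or group, and other members by range and count; genes most like Cd74 are taken from the 8 with the highest correlation of log2(CPM + 1), and some genes of these and of the marker lists are not reported here. Alternatives were RLE size factors, DESeq2 1.42.0, limma 3.58.1 voom with quality weights, 1 fit shared by all 18 libraries, no filter, a stricter filter (CPM of at least 1 in 3 libraries), the replicate number as a block, each library left out, and for liraglutide in the atria and its contrasts, liraglutide replicate 3 and PBS replicate 2 of the atria left out together. Libraries of the same number deviated together (r 0.13 to 0.24, every pair over 0.1) in 3 comparisons: both of infarcted with non-infarcted LV, and atria with non-infarcted LV with PBS.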

Additional observations from a re-analysis of the deposited data

How the results depend on the processing

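Of 97 calls of a member in a comparison, 66 held under every alternative run and 0 changed direction. Among 678 alternatives that kept all libraries, 22 fell below the threshold, as did 84 of 582 that left out 1 library. The count of members called in infarcted against non-infarcted LV with PBS was 22 with the replicate block and 14 without it, and 13 to 21 with 1 library left out. With liraglutide it was 20 to 25 with 1 library left out (24 with all). In atria against non-infarcted LV it was 6 to 16 with liraglutide (10 with all) and 7 to 14 with PBS (11 with all). Against infarcted LV it was 14 to 20 with liraglutide (21 with all) and 14 to 17 with PBS (17 with all). The counts for liraglutide and its contrasts were 0 under every alternative. The replicate block moved no other count by over 1.5 times. Values near 0 changed sign. In atria against non-infarcted LV with PBS, Cd74 was 0.0728 with voom quality weights, 0.0291 with the replicate block and -0.19 to 0.30 with 1 library left out, where 0.30 is without non-infarcted replicate 3, and B2m was -0.32 to 0.0045 with 1 library left out. In atria against infarcted LV with PBS, H2-K1 was -0.18 to 0.0419 with 1 library left out. The cause was not tested. H2-T22 and H2-T-ps were too low for any comparison. Of their stretches of 50 bases 34.5% and 29.4% occur in other genes. Whether depth or this shared sequence keeps their counts low was not tested.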

Other observations

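Over the 18 libraries, the genes outside the members whose log2(CPM + 1) was most like that of Cd74 included Slamf7 (r = 0.89), Ccl3 (0.89), Egr1 (0.89), Zfp36 (0.88), Fem1c (0.87), Crispld2 (0.87) and Nr4a1 (0.87). Among the members H2-Eb1 (0.99), H2-Ab1 (0.98) and H2-Aa (0.97) were closest, Tap1 had 0.91, and Ciita had 0.16. These values describe 18 libraries that fall into 3 regions and differ in depth. H2-M9, a class I symbol below the minimum for members, had 19 counts in all, of which 17 were in the atrial PBS library with fat cell markers.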
